A study of Mus musculus with 4 samples.

Results

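The 10 genes described here encode cytokines and growth factors that fibroblasts are known to release when they become senescent: Il6, Il11, Lif, Il1a, Il1b, Il1rn, Il33, Csf1, Tnf and Gdf15. Their spots were found by gene name with no threshold on any value, and they are 10 of the 31709 genes on the array. All 10 were represented, by 12 probes on 39 spots. The RNA came from mouse embryonic fibroblasts (MEFs), connective tissue cells of the embryo, which were either wild type (WT, p53+/+) or p53-/-. Each genotype was grown without any agent or with doxorubicin, a drug that breaks DNA by trapping topoisomerase II. The study used these arrays to look for genes that respond to DNA damage through p53. Each of these 4 conditions was measured on 1 one-color Agilent array, and all 4 arrays were on 1 slide. The dose and duration of doxorubicin for the arrays, and the number of embryos or cultures behind each RNA, were not given in the sources used here. Senescence itself was not scored for these RNAs, so the genes are called secreted cytokine genes below.

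Senescent and damaged cells secrete a mixture of cytokines, growth factors and proteases that acts on neighbouring cells and on the immune system. In fibroblasts this secretion is known to be driven largely by the kappa B and C/EBP transcription factors, with interleukin 1 alpha on the cell surface feeding back on the same cell. p53, the transcription factor that DNA damage stabilizes, is known both to activate genes such as Gdf15 and to restrain the inflammatory part of this secretion.

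With 1 array per condition there was no replicate check and no test. All values are comparisons of single arrays, in which condition, culture and position on the slide cannot be told apart. In bulk RNA, fewer cells that make a transcript and less of it per cell cannot be told apart either. The errors that could be measured were small. The log2 signals of 253 probes spotted 10 times and above background had a pooled SD of 0.08, which is 0.11 for a ratio of single spots, and the scanner program's own error for the ratios of these genes was 0.20 to 0.36 on the log2 scale. Neither includes differences between cultures. Trp53, the gene that encodes p53, had signals of 1228 and 3442 in WT MEFs without and with doxorubicin. In p53-/- MEFs they were 442 and 543, so the signal was lower on the arrays labelled p53-/-. Where the Trp53 probe lies against the targeted part of the gene could not be determined, which limits this check of the labels. All 10 fibroblast markers were well above background on all 4 arrays. Dcn, Lum, Pdgfra and Pdgfrb, which encode matrix proteoglycans and platelet-derived growth factor receptors, were at least 2-fold lower with doxorubicin in WT MEFs, and Lum and Pdgfrb were so in p53-/- MEFs. Of 11 leukocyte markers 7 to 9 were above background, with a summed signal of 33936 to 37178 that came mostly from Itgam. Above background on all 4 arrays were Itgam, Csf1r, Adgre1, Cd3e, Mrc1 and, at 65.3 to 104, the pan-leukocyte gene Ptprc, while the B cell gene Cd79a was above it on none. With doxorubicin, WT MEFs differed at least 2-fold in Ly6g (log2 1.53), Mrc1 (log2 -1.28) and Cd68, which came above background there (at least 4.25-fold). Ly6g came above background in p53-/- MEFs (at least 3.22-fold, but under the brightest negative control on the untreated array). Of the 4 epithelial markers 1, 3, 1 and 2 were above background in the same order of conditions, with summed signals of 415, 1856, 300.1 and 755. Krt5 came above background with doxorubicin in WT MEFs, at a signal of 951 and at least 19.1-fold higher, and Krt14 had log2 ratios of 1.54 (WT) and 1.05 (p53-/-), whereas Epcam was not above background on any array. Of the 4 endothelial markers 2, 3, 2 and 2 were above background, with Kdr at 5269 to 7434, Pecam1 at 118 to 207 and the defining gene Cdh5 above background on none. The part of other cells in the results was not tested.

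Signals below are background-subtracted spot intensities in arbitrary units, always listed as WT without and with doxorubicin, then p53-/- without and with it. Ratios were taken after each array was scaled to its 75th percentile, which stood at 2074, 1819, 1881 and 2421. A ratio was measured only where the scanner program called the probe well above background on both arrays compared. A gene is called higher or lower where the ratio was at least 2-fold.

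Of the 10 genes, 6 were above background on all 4 arrays (Il6, Il11, Lif, Csf1, Gdf15 and Il33), 2 on some arrays (Il1a and Il1rn) and 2 on none (Il1b and Tnf). The genes did not move as a block. In p53-/- MEFs doxorubicin went with a large gain of Il6, the appearance of Il1a and a gain of Lif. In WT MEFs it went with gains of Lif and Gdf15 and a loss of Il33, while Il6 differed by less than 2-fold. The plot of signals on the 4 arrays shows these patterns.

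**Figure D1:**
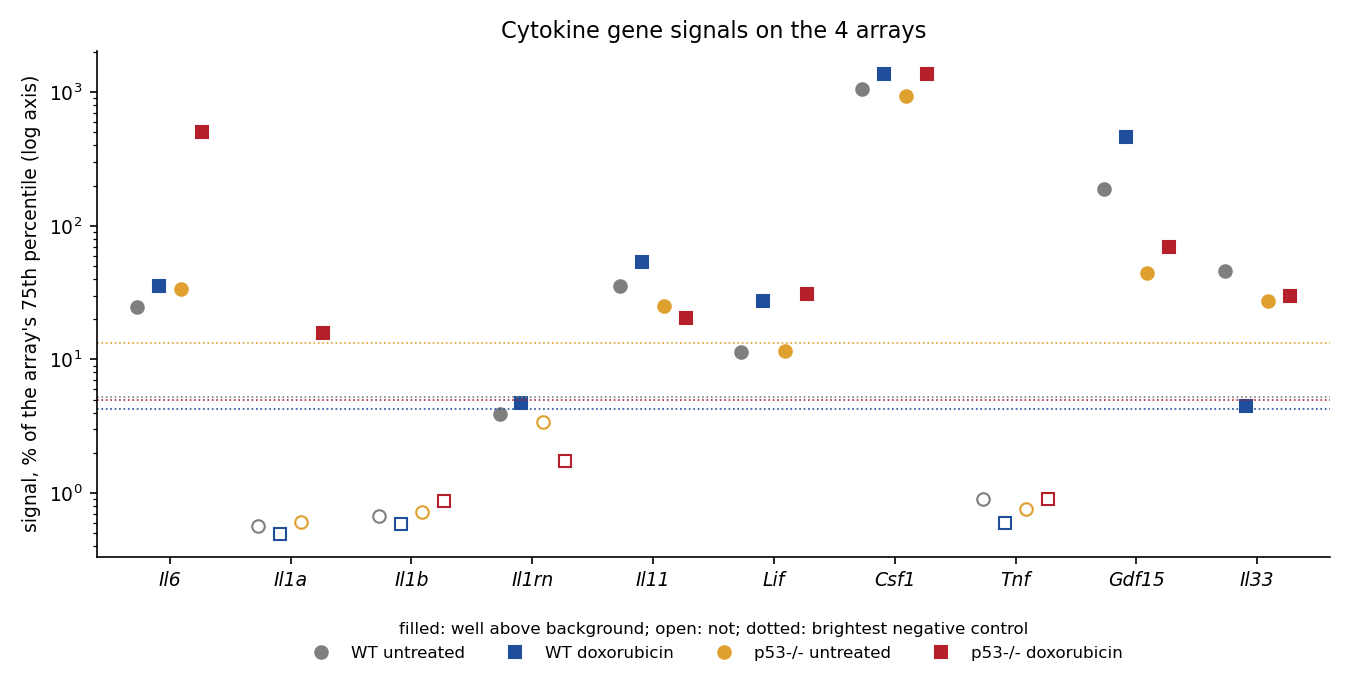
Signal of each cytokine gene on the 4 arrays, as a percentage of the array's 75th percentile on a log axis. Circles are untreated and squares doxorubicin-treated MEFs. Filled symbols were well above background and open symbols were not, and each dotted line is the brightest negative control spot of the array of that colour. Heights are comparable between arrays within a gene but not between genes. Il6 stands at 502% in doxorubicin-treated p53-/- MEFs and at 24.8% to 35.7% on the other 3 arrays, and Il33 drops to 4.52% in doxorubicin-treated WT MEFs.

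Il6 encodes interleukin 6, which signals through its receptor Il6ra and the shared subunit Il6st (gp130) and is among the most studied products of senescent fibroblasts. Its probe lies at chr5:30346367-30346426 (mm9, plus strand). The signals were 515, 649, 633 and 12146. The doxorubicin-treated p53-/- array was far above the other 3, which lay close together. The ratio of doxorubicin-treated to untreated p53-/- MEFs was 14.9-fold (log2 3.90), and 30 of 16953 measured genes had a larger one. In WT MEFs the same ratio was 1.44-fold (log2 0.52), which is below the 2-fold threshold. The difference between the log2 ratios of the 2 genotypes, WT minus p53-/-, was -3.37, and 95 of 16513 genes had a lower value. With doxorubicin, Il6 was 14.1-fold higher in p53-/- than in WT MEFs, and without it 1.36-fold. The neighbouring 24 measured spots around the Il6 spot had a median log2 ratio of -0.04 between the doxorubicin-treated and untreated p53-/- arrays. The Il6 spot itself was not flagged as an outlier on any array.

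Letters of known binding motifs were looked up in the 250 bases before the RefSeq transcription start (GRCm38.p6), on both strands except for the TATA box, which was read on the gene's strand. The motifs were kappa B and the p53 half-site by name, AP-1 (TGANTCA), CRE (TGACGTCA), C/EBP (TTGCNNAA), STAT (TTCNNNGAA) and the TATA box (TATAAA). No match overlapped another in these genes. Of all 32851 windows of this length, 7.25% held the kappa B letters, 7.13% the p53 half-site, 6.75% AP-1, 1.55% CRE, 9.56% C/EBP, 7.02% STAT and 7.59% the TATA box. A match here describes letters and is not evidence of binding. Windows are printed for Il6, Lif, Il1a, Il33 and Gdf15, whose signals differed at least 2-fold with doxorubicin in either genotype, with every match in capitals and the rest in lower case, 5′ to 3′ toward the start. The window of Il6 is shown first because it held the most matches, 4:
Il6, chr5:30012864-30013113, plus strand: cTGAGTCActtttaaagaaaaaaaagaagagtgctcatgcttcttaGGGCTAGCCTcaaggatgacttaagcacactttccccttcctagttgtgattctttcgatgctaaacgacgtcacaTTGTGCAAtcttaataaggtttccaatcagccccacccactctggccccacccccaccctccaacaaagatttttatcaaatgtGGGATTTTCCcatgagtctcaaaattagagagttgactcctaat
The capitals are, from left to right, AP-1 (positions -249 to -243 from the start), the p53 half-site (-204 to -195), C/EBP (-128 to -121) and kappa B (-44 to -35). The letters of the p53 half-site were in 1 of the 15 windows of the 10 genes, that of Il6, beside 7.13% of all windows.

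Lif encodes leukemia inhibitory factor, a relative of interleukin 6 that signals through Lifr and Il6st. Its probe lies at chr11:4172032-4172091 (mm9, plus strand). The signals were 234, 498, 219 and 754. Both doxorubicin-treated arrays were above both untreated arrays. The ratio was 2.43-fold in WT MEFs (log2 1.28) and 2.67-fold in p53-/- MEFs (log2 1.42), and the difference of these log2 ratios, -0.14, was within the measured error of single spots. Scaling each array to its median instead left 1.0 and 1.12 on the log2 scale. The signal of 219 in untreated p53-/- MEFs was called above background, but 2 of 153 negative control spots were brighter on that array. Untreated, the genotypes differed by 1.03-fold, and with doxorubicin by 1.14-fold. The window of Lif held kappa B letters at -178 to -169 and AP-1 letters at -228 to -222, the leftmost capitals:
Lif, chr11:4257318-4257567, plus strand: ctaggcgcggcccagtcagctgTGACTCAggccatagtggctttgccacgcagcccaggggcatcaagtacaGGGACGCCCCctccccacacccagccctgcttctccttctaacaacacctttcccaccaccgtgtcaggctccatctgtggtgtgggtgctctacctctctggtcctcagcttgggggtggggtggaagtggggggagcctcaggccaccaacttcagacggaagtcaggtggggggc
Il6 and Lif thus share 2 of the motifs searched, and any relation of these letters to the ratios was not tested.

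Il11 encodes interleukin 11, the third cytokine here that uses Il6st, with Il11ra1 as its own receptor. Its probe lies at chr7:4724847-4724906 (mm9, minus strand). The signals were 736, 971, 476 and 497. Both WT arrays were above both p53-/- arrays. Doxorubicin went with a log2 ratio of 0.59 in WT MEFs and of -0.30 in p53-/- MEFs, both under 2-fold. With doxorubicin, Il11 was 2.60-fold lower in p53-/- than in WT MEFs, and 1.40-fold lower without it.

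Il1a encodes interleukin 1 alpha, a cytokine that is active as a precursor, can stay on the cell surface and acts through Il1r1. Its probe lies at chr2:129125994-129126053 (mm9, minus strand). The signals were 11.7, 9.03, 11.5 and 379. It was above background only in doxorubicin-treated p53-/- MEFs, where no negative control was brighter. Measured against the lowest signal called above background on the untreated p53-/- array, Il1a was at least 5.09-fold higher with doxorubicin. By the same rule, the doxorubicin-treated p53-/- signal was at least 6.43-fold above that of doxorubicin-treated WT MEFs. Against the brightest negative control of each other array these values were 1.18-fold and 3.68-fold, since 1 negative control reached 250.1 on the untreated p53-/- array. Of the 31709 genes on the array, 3.35% were above background in p53-/- MEFs only with doxorubicin and at least 2-fold higher by this bound. The measured spots around Il1a on the p53-/- arrays had a median log2 ratio of -0.07 over 22 spots. The window of Il1a held TATA box letters at -32 to -27 and AP-1 letters at -12 to -6:
Il1a, chr2:129309973-129310222, minus strand: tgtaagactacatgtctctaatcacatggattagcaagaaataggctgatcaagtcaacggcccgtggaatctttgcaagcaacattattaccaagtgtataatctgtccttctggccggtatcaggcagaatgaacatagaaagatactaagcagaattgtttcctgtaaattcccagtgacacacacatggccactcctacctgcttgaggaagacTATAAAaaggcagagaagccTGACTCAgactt
These lie closer to the start than any match in the windows of Il6 and Lif.

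Il1b, which encodes the secreted form interleukin 1 beta, had signals of 14.0, 10.7, 13.5 and 21.1. Its probe was spotted 10 times, and no spot was above background on any array. Il1rn encodes the antagonist that occupies the interleukin 1 receptor without signalling. Its signals were 80.4, 86.2, 64.4 and 42.3, called above background on the WT arrays only. The WT ratio was 1.22-fold (log2 0.29), less than the 0.36 that the scanner program gives as its error. Il1rn was lower in p53-/- MEFs by at least 1.13-fold untreated and 1.32-fold with doxorubicin, but only against the lowest called signal. The brightest negative controls of the p53-/- arrays were above both WT signals, so its direction was not measurable at this signal.

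Il33 encodes interleukin 33, a nuclear protein that acts as an alarm signal through Il1rl1 (ST2) when cells die. Its probe lies at chr19:30035101-30035160 (mm9, plus strand). The signals were 949, 82.2, 511 and 725. The doxorubicin-treated WT array was far below the other 3. Il33 was 10.1-fold lower with doxorubicin in WT MEFs (log2 -3.34), and 62 of 17513 genes had a lower ratio. For p53-/- MEFs the log2 ratio was 0.14, and scaling by array medians turned it to -0.16. With doxorubicin Il33 was 6.63-fold higher in p53-/- than in WT MEFs, although untreated it was 1.68-fold lower. The difference of the doxorubicin log2 ratios, WT minus p53-/-, was -3.48, and 81 genes had a lower value. The signal of 82.2 was just above the brightest negative control of its array, 77.5, so the depth of the loss was poorly bounded. With another background correction, normexp, the log2 ratio in WT MEFs was -2.42. On the same pair of WT arrays, 4 of 10 fibroblast markers were lower and 0 higher, beside 10.4% and 11.0% of all genes. Their log2 ratios ran from -4.81 (Lum) and -3.36 (Pdgfra) to 0.26 (Col1a1), with a median of -0.61. In p53-/- MEFs 2 were lower and 0 higher, beside 6.89% and 9.24%, with Lum at -2.34. Any relation of these markers to Il33 was not tested. Around the Il33 spot, 29 measured spots had a median log2 ratio of 0.07. RefSeq gives Il33 more than 1 start. The window of the downstream start is printed because it held the letters of both C/EBP (-85 to -78) and the TATA box (-29 to -24), and that of the upstream start held the TATA box letters alone:
Il33, chr19:29945540-29945789, plus strand: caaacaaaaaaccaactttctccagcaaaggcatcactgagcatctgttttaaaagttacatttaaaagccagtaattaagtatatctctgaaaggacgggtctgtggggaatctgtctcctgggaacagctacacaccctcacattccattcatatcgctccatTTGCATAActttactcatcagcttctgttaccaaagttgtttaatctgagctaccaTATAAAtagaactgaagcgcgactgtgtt
No kappa B or AP-1 letters were in either window, which says only that these letters are not there.

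Gdf15 encodes growth differentiation factor 15, a distant member of the TGF-beta family, known as a stress-induced target of p53. Its probe lies at chr8:73153293-73153352 (mm9, minus strand). The signals were 3927, 8378, 836 and 1676. Both WT arrays were above both p53-/- arrays, and within each genotype the doxorubicin-treated array was the higher. Doxorubicin went with a 2.43-fold higher signal in WT MEFs (log2 1.28) and a 1.56-fold higher one in p53-/- MEFs (log2 0.64). The difference of these log2 ratios was 0.64, below 2-fold. Gdf15 was 4.26-fold lower in untreated p53-/- than in untreated WT MEFs (log2 -2.09), and 44 of 17286 genes had a lower ratio. With doxorubicin it was 6.65-fold lower (log2 -2.73). The difference between genotypes was therefore present before treatment. The window of its upstream start is shown because Gdf15 is the member best known as a p53 target. No letters of any motif searched, the p53 half-site included, were in the window of either start:
Gdf15, chr8:70632457-70632706, minus strand: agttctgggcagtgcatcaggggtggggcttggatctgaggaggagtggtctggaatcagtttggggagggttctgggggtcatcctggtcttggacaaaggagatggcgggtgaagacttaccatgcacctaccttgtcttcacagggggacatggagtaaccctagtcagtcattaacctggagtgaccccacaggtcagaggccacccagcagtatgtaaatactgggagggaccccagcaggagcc
All of this window is in lower case because nothing matched. Sites outside the windows were not searched.

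Csf1 encodes macrophage colony-stimulating factor, which acts on monocytes and macrophages through Csf1r. Its brightest probe lies at chr3:107544333-107544392 (mm9, minus strand) and was spotted 10 times. The signals were 21783, 25029, 17694 and 32969.7. The doxorubicin-treated array was the higher in both genotypes. The ratio was 1.31-fold in WT MEFs (log2 0.39) and 1.45-fold in p53-/- MEFs (log2 0.53), both below 2-fold. The probes of the gene disagreed on the size. The other 2, which overlap each other and lie at another place in the gene, gave log2 ratios of 0.59 and 0.61 in WT and of 1.03 and 1.04 in p53-/- MEFs, just past 2-fold. The log2 ratio of p53-/- to WT MEFs was -0.16 without and -0.02 with doxorubicin by the brightest probe.

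Tnf encodes tumor necrosis factor, which acts through Tnfrsf1a and Tnfrsf1b. Its signals were 18.7, 10.9, 14.2 and 21.8. None of its 10 spots was above background on any array, so Tnf was not detectable at this signal in any condition.

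**Figure D2:**
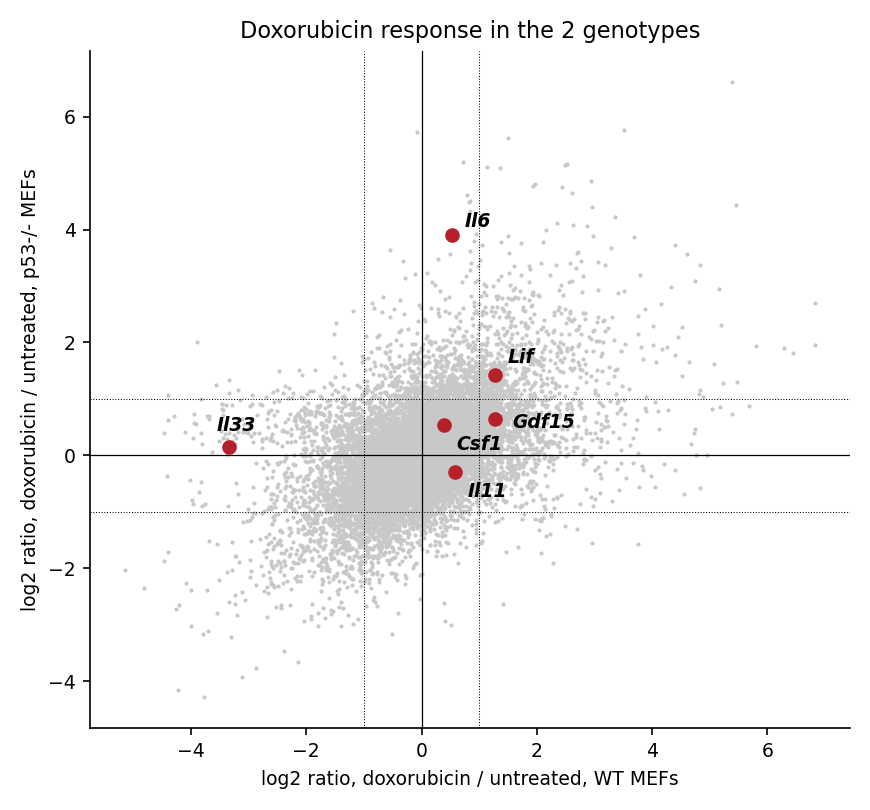
Log2 ratio of doxorubicin-treated to untreated MEFs in WT (x axis) and p53-/- MEFs (y axis) for the 16513 genes above background on all 4 arrays (grey) and the 6 cytokine genes among them (red). Dotted lines mark 2-fold. Il6 lies at 0.52 and 3.90, Il33 at -3.34 and 0.14, Lif at 1.28 and 1.42, and the other 3 genes within 1.28 of 0 on both axes.

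The counts of called cytokine genes were set beside those of all genes. In WT MEFs 2 of 7 measured cytokine genes (Lif and Gdf15) were higher with doxorubicin, beside 11.0% of 17513 genes, and 1 (Il33) was lower, beside 10.4%. In p53-/- MEFs 2 of 6 (Il6 and Lif) were higher, beside 9.24% of 16953 genes, and 0 were lower, beside 6.89%. The median log2 ratio was 0.52 for the 7 genes in WT MEFs and 0.59 for the 6 in p53-/- MEFs, where the medians of all genes were 0.01 and 0.00. Most of these ratios were above 0 on this scale, but few passed 2-fold. Small ones depended on the processing. Il1rn in WT MEFs was at -0.10 with quantile normalization, and Il33 in p53-/- MEFs at -0.16 with median scaling. Of the 6 genes measured on all arrays, the difference of the doxorubicin log2 ratios was at least 2-fold lower in WT MEFs for 2 (Il6 and Il33), beside 9.86% of 16513 genes, and at least 2-fold higher for 0, beside 8.37%. With so few genes these counts are descriptions.

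Fewer genes differed between the untreated genotypes than between the doxorubicin-treated ones. Of 6 measured cytokine genes 0 were higher in p53-/- than in WT MEFs, beside 2.15% of 17286 genes, and 1 (Gdf15) was lower, beside 2.61%. With doxorubicin, 2 (Il6 and Il33) were higher, beside 11.9% of 17892 genes, and 2 (Gdf15 and Il11) were lower, beside 10.3%. The median log2 ratio of the 6 genes was -0.32 untreated and 0.08 with doxorubicin. Il6 and Il33 reached a like place in this comparison from opposite sides, Il6 by its gain in p53-/- MEFs and Il33 by its loss in WT MEFs.

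**Figure D3:**
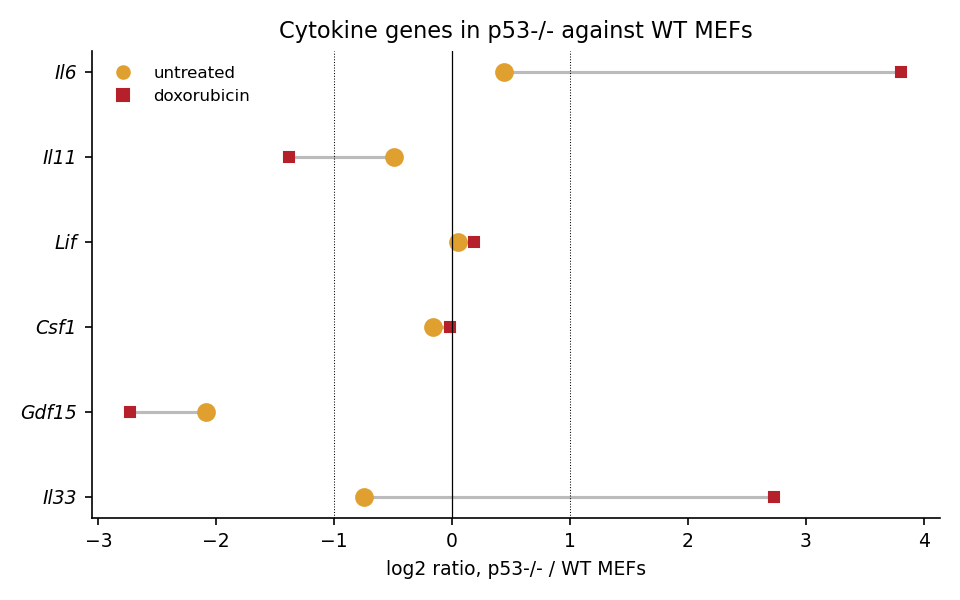
Log2 ratio of p53-/- to WT MEFs for the 6 cytokine genes above background on all 4 arrays, untreated (circles) and with doxorubicin (squares). Dotted lines mark 2-fold. Gdf15 lies past the lower line in both states, at -2.09 and -2.73, while Il6 and Il33 pass the upper line only with doxorubicin, at 3.81 and 2.73.

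The genes around these cytokines were counted in the same way. Of 12 measured receptor genes 1 was higher and 6 were lower with doxorubicin in WT MEFs, beside 11.0% and 10.4% of all genes. The median was -0.83 on the log2 scale. Among 11 in p53-/- MEFs, 2 were higher and 0 lower, beside 9.24% and 6.89%, with a median of -0.22. The difference between the genotypes was not tested for any list. Il6ra, the binding subunit for interleukin 6, was higher in both genotypes, with log2 ratios of 2.24 and 1.03. Il6st, the signalling subunit shared by interleukin 6, interleukin 11 and leukemia inhibitory factor, was at -1.54 in WT and -0.22 in p53-/- MEFs. Its partners were lower in WT MEFs too, with Lifr at -2.09, Osmr at -1.47 and Il11ra1 at -1.29. In p53-/- MEFs they stood at -0.73, -0.48 and -1.0, where Il11ra1 was just short of 2-fold before rounding. Quantile normalization took Il11ra1 there to -1.02 and so gave 1 lower receptor gene. Il1r1, which binds both forms of interleukin 1, was at -1.02 in WT and 0.00 in p53-/- MEFs, and its partner Il1rap was at -0.35 in WT and 1.22 in p53-/- MEFs. The decoy receptor Il1r2 had a log2 ratio of 0.24 in WT MEFs. In p53-/- MEFs it came above background with doxorubicin, at least 2.76-fold higher, but not above the brightest negative control on the untreated array. Among the receptors of tumor necrosis factor, Tnfrsf1b was at -1.36 and 0.16 and Tnfrsf1a at -0.35 and -0.28 in WT and p53-/- MEFs. Csf1r was at -0.63 and 0.06, and the interleukin 33 receptor Il1rl1 at -0.04 and -0.39. Gfral, the receptor of Gdf15 known from the hindbrain, was not above background on any array. Normexp left Il6ra and Il1rap at 0.98 and 0.87 in p53-/- MEFs. The untreated p53-/- signal of Il1rap, 159, was below the brightest negative control of that array, 250.1. Scaled to the array medians, Il6ra and Il1rap stood at 0.73 and 0.92 in p53-/- MEFs. On that scale 0 receptor genes were higher and 2 lower in p53-/- MEFs, so the direction of this list there depended on the scaling.

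Of 7 measured genes of processing and release, 4 were higher and 0 lower in p53-/- MEFs, beside 9.24% and 6.89% of all genes, with a median log2 ratio of 1.03. With normexp, or with array medians as the scale, 2 of the 7 were higher. Of 8 measured in WT MEFs 2 were higher and 0 lower, beside 11.0% and 10.4%, with a median of 0.00. Casp4, whose mouse product is caspase 11, a protease that cleaves gasdermin D, was 8.79-fold higher in p53-/- MEFs (log2 3.14) and had a log2 ratio of -0.29 in WT MEFs. Gsdmd, the pore-forming gasdermin D through which interleukin 1 leaves the cell, was higher in both, by 3.27-fold in p53-/- and 2.13-fold in WT MEFs. Casp1, which matures interleukin 1 beta, was 2.41-fold higher in p53-/- MEFs and had a log2 ratio of -0.19 in WT MEFs. Pycard, the inflammasome adaptor, had the larger ratio in WT MEFs, 14.9-fold (log2 3.90), against a log2 ratio of 1.03 in p53-/- MEFs. With array medians, 1 of 8 was higher and 1 lower in WT MEFs. Median scaling also took Casp1 and Pycard in p53-/- MEFs to 0.97 and 0.73, and Gsdmd in WT MEFs to 0.81, all under 2-fold.

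Of 17 related cytokines, 10 were measured in WT and 9 in p53-/- MEFs. Among these, 1 was higher and 0 lower in WT MEFs (beside 11.0% and 10.4% of all genes), with a median log2 ratio of -0.25. For p53-/- MEFs 2 were higher and 0 lower (beside 9.24% and 6.89%), with a median of 0.29. A further 3 in each genotype came above background only with doxorubicin and were at least 2-fold higher by bound, as 3.23% of all genes on the array did in WT and 3.35% in p53-/- MEFs. These 4 genes are named after their values were seen. Ltb, which encodes lymphotoxin beta, was at least 4.29-fold higher in WT and 8.0-fold in p53-/- MEFs, and Il15, which encodes interleukin 15, at least 5.09-fold and 2.32-fold. Il7, which encodes interleukin 7, was at least 5.13-fold higher in WT MEFs, and Csf3, which encodes granulocyte colony-stimulating factor, at least 4.92-fold in p53-/- MEFs. Against the brightest negative control on the untreated array, Ltb, Il15 and Il7 in WT MEFs were 2.24-fold, 2.66-fold and 2.69-fold higher. In p53-/- MEFs the values were 1.85-fold for Ltb, 1.14-fold for Csf3 and 0.537-fold for Il15, which was thus below that control. Kitl, which encodes stem cell factor, was higher in both, at log2 ratios of 1.70 and 1.36, though normexp left 0.86 in p53-/- MEFs and so 1 higher gene there. Tslp, which encodes thymic stromal lymphopoietin, was 4.32-fold higher in p53-/- MEFs and had a log2 ratio of -0.97 in WT MEFs. Scaled to the array medians, 3 of the 10 were lower in WT MEFs, and 2 with quantile normalization.

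Of 16 signalling genes below the receptors, 1 was higher and 1 lower in WT MEFs, beside 11.0% and 10.4% of all genes, and 3 were higher and 0 lower in p53-/- MEFs, beside 9.24% and 6.89%. The medians were -0.16 and 0.19. Socs3, the feedback inhibitor of Il6st signalling, was 3.80-fold lower in WT MEFs and had a log2 ratio of -0.27 in p53-/- MEFs. Myd88, the adaptor of the interleukin 1 receptor, was 2.23-fold higher in WT MEFs (log2 1.16) and had a log2 ratio of 0.77 in p53-/- MEFs. The higher genes in p53-/- MEFs were the inhibitors Socs1 at 2.66-fold, Irak3 at 2.61-fold and Cish at 2.39-fold. Their log2 ratios in WT MEFs were 0.00, 0.25 and 0.82. With array medians, 0 were higher and 3 lower in WT MEFs, and 2 were higher in p53-/- MEFs, with Myd88 at 0.88 and Cish at 0.96.

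Factors that transcribe cytokine genes or destroy their mRNA were higher in p53-/- MEFs for 5 of 14 and lower for 0, beside 9.24% and 6.89% of all genes. Their median was 0.72 on the log2 scale. In WT MEFs 1 was higher and 2 were lower, beside 11.0% and 10.4%, and the median was -0.47. Atf3, a stress-induced repressor and activator, was 4.40-fold higher in p53-/- MEFs, Zc3h12a, a nuclease that degrades Il6 mRNA, 4.36-fold, and Relb, a subunit of the kappa B factors, 3.23-fold. In WT MEFs their log2 ratios were -0.74, 0.53 and -0.13. Bcl3, a cofactor of the kappa B factors, and Cebpb, the C/EBP factor linked to cytokine secretion in senescence, were 3.94-fold and 2.48-fold lower in WT MEFs, at log2 ratios of 0.51 and -0.16 in p53-/- MEFs. Cebpd, another C/EBP factor, is named after its values were seen. It was at -0.68 in WT and 1.24 in p53-/- MEFs, where array medians left 0.94. Zfp36, which encodes tristetraprolin, another protein that shortens cytokine mRNAs, was higher in both genotypes, at log2 ratios of 1.31 (WT) and 1.35 (p53-/-), or 0.83 and 0.93 with normexp. With array medians the counts were 1 higher and 4 lower in WT, and 4 higher in p53-/- MEFs. Kappa B letters, the motif that Relb and Bcl3 act through, were in 3 of the 15 windows of the 10 cytokine genes (Csf1, Il6 and Lif). AP-1 letters were in 5 of these 15 (Il11, Il1a, Il1rn, Il6 and Lif). Of all 32851 windows, 7.25% and 6.75% held these letters. Any link between letters and ratios was not tested.

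**Figure D4:**
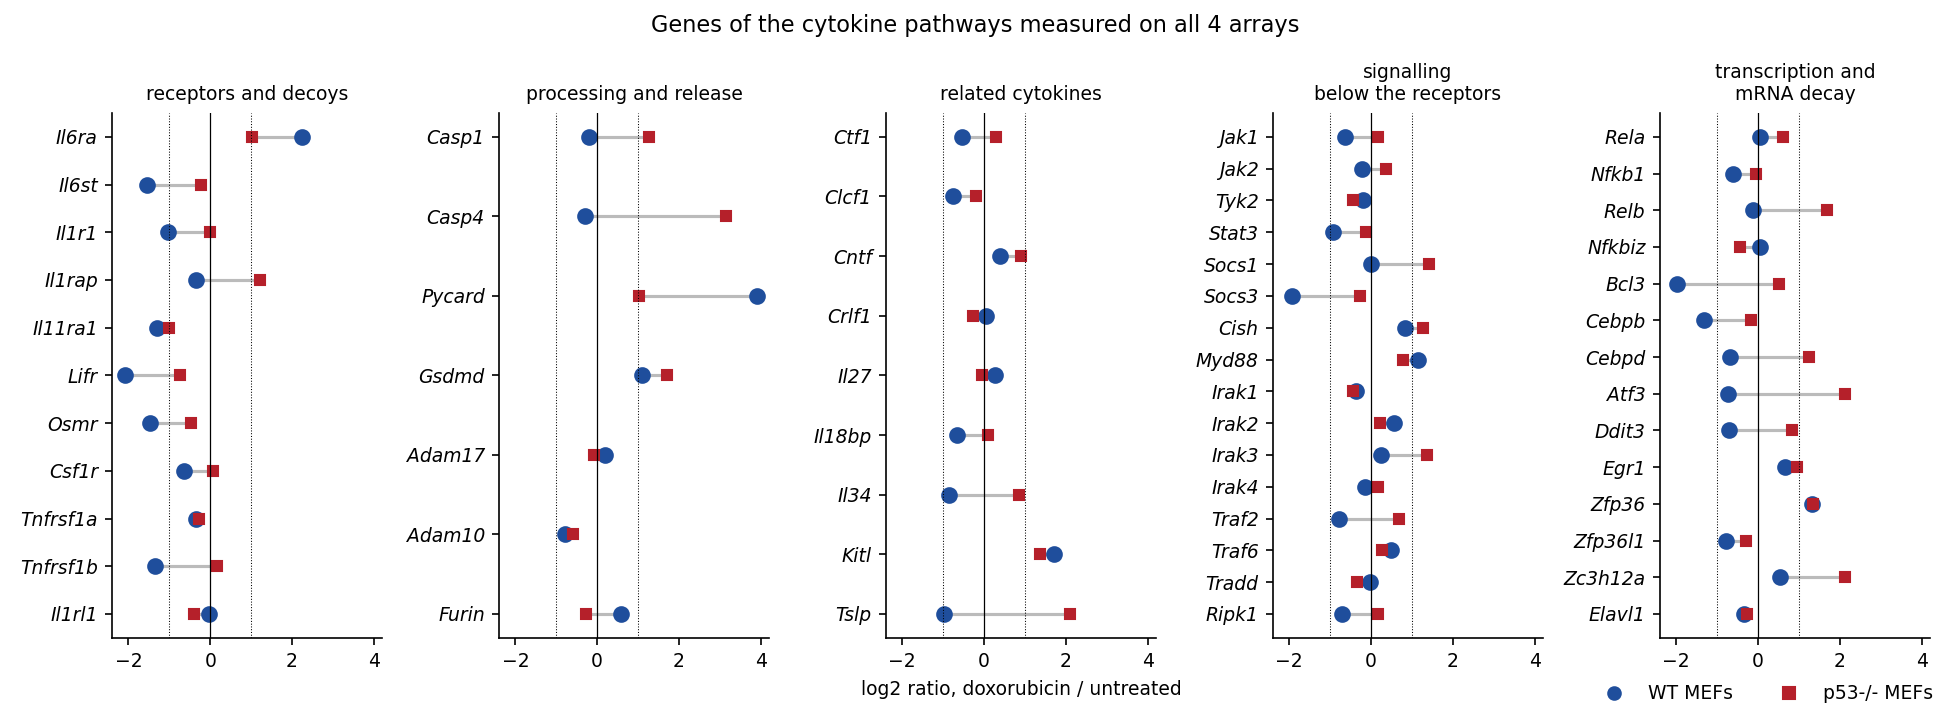
Log2 ratio of doxorubicin-treated to untreated MEFs for the genes of 5 cytokine pathway lists that were above background on all 4 arrays, in WT (blue circles) and p53-/- MEFs (red squares). Dotted lines mark 2-fold. Casp4 lies at -0.29 and 3.14, Pycard at 3.90 and 1.03, Atf3 at -0.74 and 2.14, and Il6st at -1.54 and -0.22.

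Genes with the profile most like that of a cytokine gene were found over the 16513 genes above background on all 4 arrays, as the smallest Euclidean distance between log2 profiles centred on their mean. This was done for the 3 cytokine genes with the widest range, Il6 (4.34 on the log2 scale), Gdf15 (3.37) and Il33 (3.34). With 4 points per profile, such likeness is a description, and a shared high or low array or order follows from how these genes were found. Nearest to Il6 were Arhgap36, a regulator of hedgehog signalling, at a distance of 0.30, Calca, which encodes calcitonin and its related peptide, at 0.47, and Cxcl1, a neutrophil chemokine, at 0.49. Cxcl1 had signals of 212, 386, 272 and 4622, with the same high array as Il6. The signals of Arhgap36 and Calca in untreated p53-/- MEFs, 154 and 150.1, were below the brightest negative control there. That of Arhgap36 in untreated WT MEFs, 99.6, was also below the brightest negative control of its array, 108. Nearest to Gdf15 were Tcn2, which encodes the vitamin B12 carrier transcobalamin, at 0.33, Serpine2, a protease inhibitor, at 0.38, and Btg2, a p53-induced antiproliferative gene, at 0.40. Btg2 had signals of 5025, 11409, 906 and 2673, in the same order from high to low as Gdf15. Nearest to Il33 were Insc, which encodes a protein of spindle orientation, at 0.47, Aldoc, a glycolytic aldolase, at 0.50, and Clca3a1, of the chloride channel accessory family, at 0.53. Insc had signals of 852, 87.9, 347 and 655 and thus its low array in doxorubicin-treated WT MEFs.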

How the data were processed

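The authors made Cy3-labelled cRNA from 200 ng of total RNA, hybridized it to Agilent mouse 4x44K v2 arrays and read them with Feature Extraction 10.7.3.1. The deposited processed intensity of each spot was background-subtracted by that program and not normalized between arrays. The deposited flags (well above background, saturated, outlier) are coded 0 or 1. The deposited table of intensities equalled the processed intensities at 177588 of 177588 values, within 0.001 percent. The Subio Platform, which the methods name for fold changes, was not used here. Positions of probes come from the files (mm9), and where a probe lies within its transcript was not determined.

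Each array held 43020 non-control spots for 39429 probes. Outlier spots were left out, and 0 spots were saturated. Log2 intensities were averaged over a probe's spots, and the 75th percentile of the array was subtracted. Probes were named through their RefSeq accession (26055 probes), symbol (3195) or a unique synonym (930), and 9249 kept the file's name. Each gene was represented by the probe whose mean over the 4 arrays was highest. Of the probes, 57.5%, 62.9%, 56.9% and 58.4% were called above background (untreated WT, doxorubicin-treated WT, untreated p53-/-, doxorubicin-treated p53-/-). The lowest signals so called were 56.7, 44.3, 57.9 and 87.1, and the brightest of 153 negative controls had 108, 77.5, 250.1 and 119.7. Where 1 array of a pair was above background, a bound was taken against the higher of the lowest called signal and the probe's own signal on the other. Precision is limited by the number of arrays. No p-value was computed.

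The genes and lists were chosen with earlier results of these data known. The rule for named genes took all 10 cytokine genes, the receptors of each, up to 3 genes per list with the largest ratio past 2-fold in each doxorubicin comparison, Trp53, and the 3 nearest profiles of the 3 genes with the widest range. Promoter sequences are from RefSeq (GRCm38.p6). Calculations used Python 3.11.15, numpy 2.4.6 and pandas 2.3.3, plots matplotlib 3.10.9, and normexp R 4.3.3 with limma 3.58.1. The scaling, the ratios and the 2-fold calls were tested on simulated data in which every probe counted as above background. The background filter, the bounds, the motif search and the search for nearest profiles were not part of that test. Alternatives were median scaling, quantile normalization, normexp with an offset of 50 on the deposited mean and local background intensities, 3 rules for dim probes, the average over the probes of a gene, the deposited table of all arrays, and thresholds of 1.5-fold and 3-fold.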

Additional observations from a re-analysis of the deposited data

How the results depend on the processing

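Of 31 log2 ratios and differences of the cytokine genes, 12 were at or past 2-fold. None of these 12 fell below 2-fold or changed sign with median scaling, quantile normalization or normexp. The genes behind them have 1 probe each, so the average over probes and the deposited table could not change their values. The rules for dim probes could only drop a value, and the brightest negative control dropped that of Lif in p53-/- MEFs. The number of higher genes in WT MEFs with doxorubicin was 0 at a 3-fold threshold, against 2. In p53-/- MEFs with doxorubicin it was 1 at 3-fold and 1 where signals had to exceed the brightest negative control, which left out Lif, against 2. The number of lower genes in p53-/- against WT MEFs was 2 at 1.5-fold untreated, against 1, and 1 at 3-fold with doxorubicin, against 2. Median scaling moved all genes together, to a median of -0.27 for WT and -0.30 for p53-/- MEFs with doxorubicin, and took Lif and Gdf15 in WT MEFs to 1.0 and 1.01. Normexp took Il33 to -2.42 in WT MEFs, to 1.87 between doxorubicin-treated genotypes and to -2.51 for the difference of the ratios. Il6 in p53-/- MEFs stayed between 3.60 and 3.90. Among ratios under 2-fold, Il1rn in WT MEFs went from 0.29 to -0.10 with quantile normalization, and Il33 in p53-/- MEFs from 0.14 to -0.16 with median scaling. For all of these the cause was not tested. No paired analysis was possible because there was 1 array per condition. Leaving out a replicate, or slide as a block, could not be run for the same reason and because all arrays shared 1 slide. Signals near the negative controls (Il1rn, Il33 in doxorubicin-treated WT MEFs, Lif in untreated p53-/- MEFs) limit those ratios.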
